A study of Homo sapiens with 21 samples.

Results

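Knocking down ARID2 was compared with a control knockdown in MM.1S, an established myeloma cell line of human origin. The comparison set 3 libraries labelled ARID2 knockdown against 3 labelled control knockdown, 6 of the 21 libraries of the series, and covered 12559 of the 17691 gene symbols in the table, those with at least 1 TPM in at least 3 of the 21 libraries. TPM is a length-scaled share of a library's transcripts. A lentivirus carried the ARID2 hairpin for 72 h. For the control, which hairpin was used and for how long is not given in the labels used here, nor are the sequences and number of hairpins, any selection of transduced cells or the share transduced. Beside these stood 3 untreated wild-type libraries, 3 labelled Aiolos knockdown (a hairpin carried for 72 h) and 3 given the drug pomalidomide at 1 µM for 72 h, with 3 more at each of 24 and 48 h. Fold changes are differences of log2(TPM + 1) with their standard errors, adjusted p-values are Benjamini-Hochberg values from limma, and passing means an adjusted p under 0.05.

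ARID2 is the DNA-binding AT-rich interaction subunit that sets PBAF apart from the other forms of the SWI/SNF chromatin remodeller. PBAF uses ATP to move nucleosomes, and it also holds PBRM1, which binds acetylated histones through several bromodomains, together with BRD7 and PHF10. Myeloma cells are malignant plasma cells that secrete large amounts of immunoglobulin and depend on the transcription factors IRF4 and MYC, which the plasma cell regulators Ikaros (IKZF1) and Aiolos (IKZF3) help to maintain.

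The 6 libraries carried plasma cell transcripts throughout: SDC1 ran from 588 to 683 TPM, JCHAIN from 4910 to 5768 TPM, and CD38 was low at 7.43 to 7.97 TPM. The depth of each library is unknown, because TPM keeps no record of it. Libraries of 1 group correlated across genes at 0.995 to 0.996, and libraries of different groups at 0.971 to 0.972. Mitochondrial mRNA held 17.2% ± 0.375 of the listed TPM in the control knockdown (SD, n = 3) and 18.5% ± 0.24 in the ARID2 knockdown, and the part of this shift in the results was not tested. Markers of other cell types were scarce. All 6 libraries were below 1 TPM for 11 of 13 T and NK cell markers, 9 of 12 myeloid, 6 of 9 B cell, 11 of 13 epithelial and stromal and 6 of 8 erythroid markers, and 5 (CD3D, CD3G, CD8B, GZMA and GZMB), 1 (S100A8), 1 (CD22), 1 (KRT19) and 0 of these genes were listed at 0 in all 6. The submitters call the libraries of a group biological replicates and give no days or cultures. Each p-value rests on the spread within groups of 3 libraries, pooled over all 7 groups of the series, and this spread may be technical.

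The targeted transcript fell by about 1 on the log2 scale, and its partners in PBAF moved less and in different directions. ARID2 (chr12:45729665-45908040, GRCh38, plus strand) read 12.4, 12.2 and 12.1 TPM in the ARID2 knockdown, and its control libraries read 26, 25.4 and 25.4 TPM. No library overlapped between the groups, and the log2 fold change was -1.01 ± 0.07 (limma adjusted p = 8.13e-11). Untreated cells held 32.4, 28.4 and 28.5 TPM and the libraries labelled Aiolos knockdown 23.2, 20.4 and 24.6 TPM, all above every ARID2-knockdown library. PBRM1 read 34.4, 32.6 and 35 TPM against 45.5, 45.8 and 43.4 TPM in the control. It was lower in every ARID2-knockdown library (-0.39 ± 0.06, adjusted p = 6.37e-06). BRD7 read 39.4, 39.3 and 42 TPM against 36.1, 37.2 and 33.4 TPM, a rise of 0.18 ± 0.06 (adjusted p = 0.0104). It no longer passed without ARID2-knockdown replicate 3 (adjusted p = 0.0539) or without control replicate 3 (adjusted p = 0.0709). PHF10 did not pass (-0.10 ± 0.06, adjusted p = 0.158), but passed at 0.0487 with median-of-ratios scaling and at 0.0417 when only the 2 groups were fitted. Across all genes, 33.1% rose and 29.2% fell, so 1 rise and 2 falls among 4 PBAF subunits, ARID2 included, are to be read against that background.

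**Figure D1:**
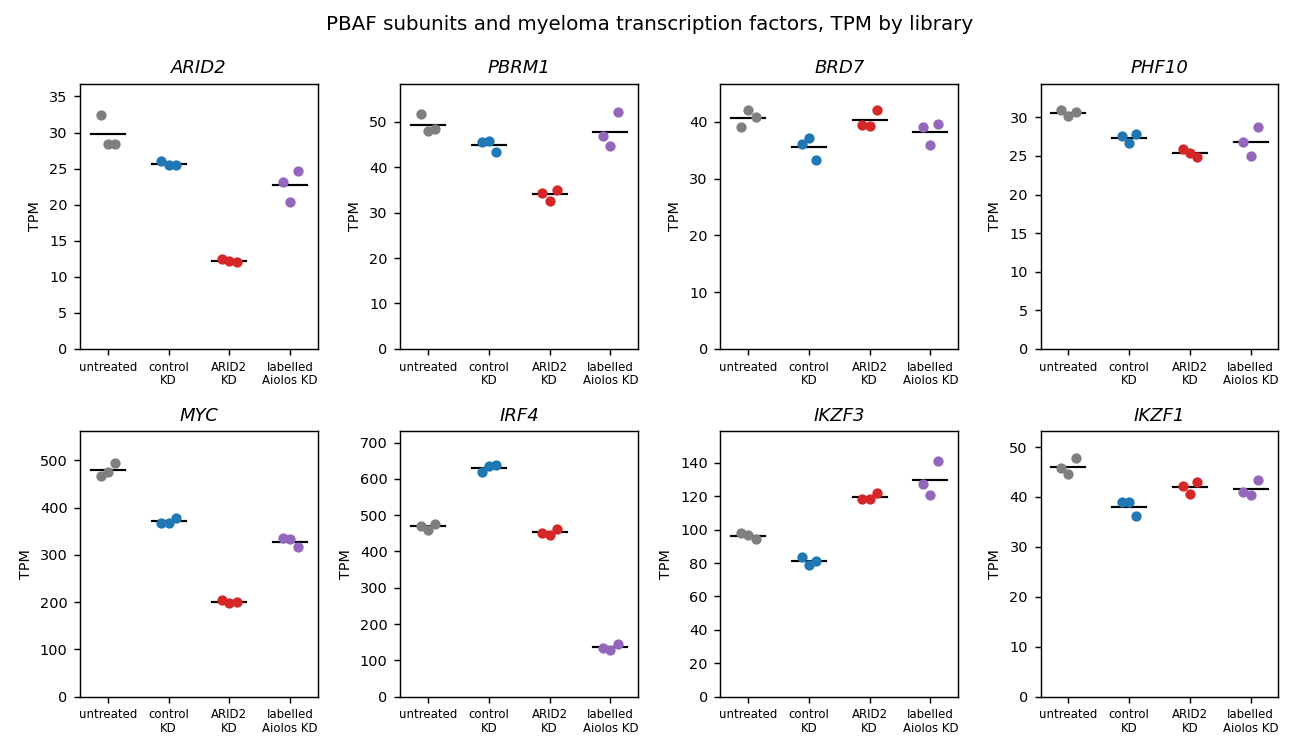
TPM of 8 genes in each library of the untreated, control knockdown (KD), ARID2 knockdown and labelled Aiolos knockdown groups. Points are libraries (n = 3 a group), bars are means and each axis starts at 0. ARID2, PBRM1 and MYC are lowest in the ARID2 knockdown, and IKZF3 is above the control in both hairpin groups.

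Among 22 subunits shared with or belonging to other SWI/SNF forms, 7 rose, 5 fell and 10 missed the threshold, the median being -0.06 beside 0.02 for all genes. SMARCD1, a shared core subunit, showed the largest change. It read 63.2, 60.8 and 64.3 TPM in the ARID2 knockdown and 115, 115 and 118 TPM in the control, without overlap (-0.88 ± 0.03, adjusted p = 1.8e-15). SS18, a subunit of the BAF and GBAF forms that PBAF lacks, fell from a mean of 88.6 to 60.1 TPM (-0.55 ± 0.04). DPF2, a reader of histone acylation particular to the BAF form, rose from 23 to 37.8 TPM (0.70 ± 0.04). BCL7C, an accessory subunit, rose from 9.49 to 16.7 TPM (0.75 ± 0.11). The shares that rose and fell, 31.8% and 22.7%, were near the 33.1% and 29.2% of all genes.

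The transcriptome differed broadly between the knockdowns, mostly by small amounts. In all, 7816 of 12559 genes passed (62.2%), 4152 of them higher and 3664 lower, and the libraries of the groups did not overlap for 8865 genes (70.6%). The median size of a change was 0.26 on the log2 scale. A change of at least 2-fold was met by 235 genes upward (1.87%) and 400 downward (3.18%). With a pseudocount of 0.1 in place of 1 TPM those counts were 431 and 590. The control knockdown itself differed from untreated cells at 5739 genes (45.7%), 17.3% higher and 28.4% lower, with a rise of 2-fold or more at 88 (0.701%) and such a fall at 21 (0.167%). Levels in untreated cells are therefore given beside some of the results. Of the 635 genes changed at least 2-fold, 603 also passed against untreated cells in the same direction. The control itself had passed against untreated cells in the opposite direction for 175 of the 635 and in the same direction for 135. In the libraries labelled Aiolos knockdown, 487 of the 635 passed against the same control in the same direction and 44 in the opposite one.

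The largest rises included genes that p53 is known to induce. PHLDA3 (chr1:201464383-201469237, minus strand), an inhibitor of AKT signalling, read 153, 155 and 159 TPM in the ARID2 knockdown and 12, 13.4 and 12.8 TPM in the control. All ARID2-knockdown libraries lay far above the control and above the untreated mean of 5.49 ± 0.648 TPM (3.51 ± 0.09 against the control, adjusted p = 6.12e-17). FDXR (chr17:74862497-74873031, minus strand) encodes ferredoxin reductase of mitochondrial electron transfer. It read 128, 128 and 116 TPM against 12.2, 11.9 and 12 TPM, again without overlap (3.26 ± 0.10, adjusted p = 1.41e-15). CDKN1A (chr6:36676460-36687339, plus strand) encodes p21, the cyclin-dependent kinase inhibitor that stops the cell cycle. Its libraries held 587, 595 and 573 TPM in the ARID2 knockdown, 65.5, 67.1 and 63.3 TPM in the control and 25.5, 21.7 and 22.1 TPM untreated. The 3 groups formed separate steps, with the ARID2 knockdown highest (3.14 ± 0.06 over the control, adjusted p = 6.61e-19).

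The largest falls were in a lipid enzyme, a lysosomal protein and an endoplasmic reticulum protein. SCD (chr10:100347124-100364834, plus strand), the desaturase that makes monounsaturated fatty acids, read 102, 101 and 106 TPM in the ARID2 knockdown and 805, 818 and 807 TPM in the control (-2.97 ± 0.04, adjusted p = 5.96e-21). Untreated cells held 621, 606 and 634 TPM of SCD, below the control and far above the ARID2 knockdown. CREG1 (chr1:167529117-167553805, minus strand), a secreted and lysosomal glycoprotein, read 44.7, 40.7 and 46.7 TPM against 314, 315 and 316 TPM (-2.81 ± 0.03, adjusted p = 8.03e-22). SSR1 (chr6:7268306-7347446, minus strand), a subunit of the translocon-associated complex at the endoplasmic reticulum membrane, read 15, 15.1 and 15.5 TPM against 104, 108 and 108 TPM (-2.74 ± 0.04, adjusted p = 3.65e-20). For all 3 genes the ARID2-knockdown libraries lay below every control and every untreated library.

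**Figure D2:**
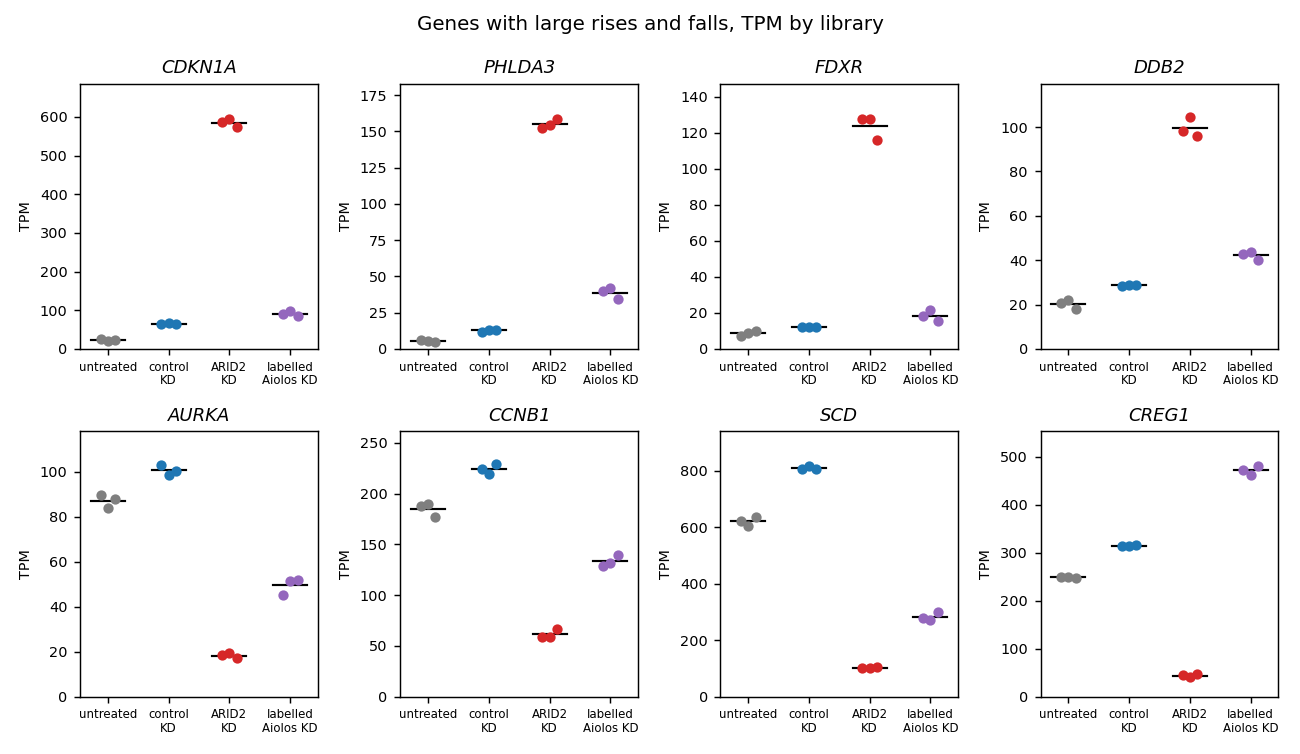
TPM of 4 genes that rose (CDKN1A, PHLDA3, FDXR, DDB2) and 4 that fell (AURKA, CCNB1, SCD, CREG1), by library, in the 4 groups without drug. Points are libraries (n = 3 a group), bars are means and each axis starts at 0. In every panel the ARID2-knockdown libraries lie apart from the other 9.

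The promoters of genes at the top of both rankings show what sequence lies before their start sites. Each is the RefSeq window from 250 bases before to 50 bases after the start (GRCh38.p14), printed 5′ to 3′ on the gene's own strand. PHLDA3 had no entry, and the window shown for FDXR is the first of 2 start sites. Capitals mark matches on either strand to the E-box CACGTG, the CRE TGACGTCA, an interferon-type motif (TTTC, any 2 bases, TTTC), the AP-1-type TGANTCA and the CCAAT box. They also mark matches to the p53 half-site and to TCACNCCAC, a sterol regulatory element, both chosen after the values were seen. LCE1E stands at chr1:152786007-152786306 (plus strand), FDXR at chr17:74872945-74873244 (minus), CDKN1A at chr6:36678464-36678763 (plus), SCD at chr10:100346983-100347282 (plus), CREG1 at chr1:167553713-167554012 (minus) and SSR1 at chr6:7313150-7313449 (minus).
LCE1E: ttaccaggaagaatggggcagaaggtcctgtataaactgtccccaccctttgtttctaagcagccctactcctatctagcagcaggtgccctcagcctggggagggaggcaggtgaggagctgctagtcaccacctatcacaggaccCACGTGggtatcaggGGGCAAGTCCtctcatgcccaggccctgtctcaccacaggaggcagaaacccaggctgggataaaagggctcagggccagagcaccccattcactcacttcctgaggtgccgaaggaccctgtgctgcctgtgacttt
FDXR: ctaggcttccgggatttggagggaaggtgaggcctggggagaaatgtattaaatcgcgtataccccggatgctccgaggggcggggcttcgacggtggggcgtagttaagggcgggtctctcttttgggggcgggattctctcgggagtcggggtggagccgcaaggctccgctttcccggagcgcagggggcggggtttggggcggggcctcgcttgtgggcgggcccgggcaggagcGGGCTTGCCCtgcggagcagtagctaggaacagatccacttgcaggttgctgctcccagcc
CDKN1A: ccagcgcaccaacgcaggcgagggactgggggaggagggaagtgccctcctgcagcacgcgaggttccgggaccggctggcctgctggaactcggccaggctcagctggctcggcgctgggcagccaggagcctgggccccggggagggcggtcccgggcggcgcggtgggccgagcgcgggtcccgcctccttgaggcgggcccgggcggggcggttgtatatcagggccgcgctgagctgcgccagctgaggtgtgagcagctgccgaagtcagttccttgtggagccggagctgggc
SCD: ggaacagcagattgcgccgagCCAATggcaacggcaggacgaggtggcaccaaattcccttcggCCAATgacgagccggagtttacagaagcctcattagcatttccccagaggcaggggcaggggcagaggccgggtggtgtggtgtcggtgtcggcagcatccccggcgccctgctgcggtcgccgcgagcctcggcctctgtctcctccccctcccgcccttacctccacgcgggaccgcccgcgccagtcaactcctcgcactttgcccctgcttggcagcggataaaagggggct
CREG1: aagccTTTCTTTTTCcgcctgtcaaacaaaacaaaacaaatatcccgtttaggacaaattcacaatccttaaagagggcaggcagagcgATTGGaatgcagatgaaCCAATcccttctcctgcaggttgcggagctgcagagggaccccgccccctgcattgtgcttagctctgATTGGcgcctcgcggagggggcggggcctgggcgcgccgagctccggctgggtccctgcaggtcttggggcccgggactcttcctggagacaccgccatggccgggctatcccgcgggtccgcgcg
SSR1: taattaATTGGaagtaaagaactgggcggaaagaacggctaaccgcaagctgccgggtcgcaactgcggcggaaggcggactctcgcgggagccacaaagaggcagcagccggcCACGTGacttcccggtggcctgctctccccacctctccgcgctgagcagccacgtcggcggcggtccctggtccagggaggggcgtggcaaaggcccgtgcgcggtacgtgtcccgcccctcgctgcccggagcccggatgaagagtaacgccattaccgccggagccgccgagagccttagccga

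The 3 risen genes carried no CCAAT box in these windows, while SCD held 2, CREG1 3 and SSR1 1. FDXR and LCE1E each held 1 p53 half-site, beginning 11 and 88 bases before the start, and the CDKN1A window held no match to any of the 7 motifs. LCE1E and SSR1 each held 1 CACGTG. A match describes letters only. Over all 35116 promoters of this length in the reference, 34.6% held a CCAAT box, 7.26% CACGTG, 1.85% TGACGTCA, 3.57% the interferon-type motif, 7.71% TGANTCA, 6.63% a p53 half-site and 1.13% TCACNCCAC. Windows were found for 301 of the 400 genes at least 2-fold lower, and 221 of their 425 promoters (52%) held a CCAAT box. For the genes at least 2-fold higher it was 81 of 265 promoters (30.6%, 175 genes), and for all genes tested 4973 of 14243 (34.9%, 9755 genes). Interferon-type matches were in 5.66% of the promoters of the genes at least 2-fold higher and in 2.12% of those at least 2-fold lower, beside 3.12% for genes tested. No test was made of these shares.

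Targets of p53 and CDK inhibitors were mostly higher in the ARID2 knockdown. Of 28 members tested, 24 rose, 2 fell (33.1% and 29.2% of all genes) and 2 missed the threshold, the median being 1.06. Rises of at least 2-fold numbered 16 (1.87% of all genes). The rises spanned several arms of the response. BBC3, which encodes the cell death protein PUMA, read 65.3, 64.4 and 67.2 TPM against 12.8, 14.5 and 15.4 TPM in the control (2.13 ± 0.08, adjusted p = 1.11e-14). FAS, the death receptor, read 66.3, 70.8 and 69.1 TPM against 17.4, 18.6 and 18.4 TPM (1.87 ± 0.07, adjusted p = 6.41e-15). GADD45A, a growth arrest gene, read 222, 219 and 222 TPM against 62.9, 62.6 and 62.4 TPM (1.81 ± 0.04, adjusted p = 2.44e-17). None of these 3 overlapped between the groups. Named after their values were seen, the DNA repair genes DDB2 (1.76) and XPC (1.3) also rose, as did MDM2 (0.78), the ligase that degrades p53, and SESN1 (1.03). The 2 that fell were RRM2B (-0.46) and CDKN2D (-0.43), and those that did not pass were PMAIP1 (-0.12) and CDKN1C (-0.07). A p53 half-site, a motif added after the values were seen, was in 6 of the 33 promoters found for 22 of these genes (18.2%). Its share was 5.73% for genes tested and 10% for the genes of G2/M and mitosis. The list was made of known p53 targets and CDK inhibitors, so this share is not an independent test. A CCAAT box was in 19 of the 33 (57.6%), above its share in all genes tested, as in the lists that fell.

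Relative to untreated cells, the median p53-target level was 0.14 higher in each control-knockdown library and 1.31 to 1.47 higher in the ARID2-knockdown libraries. In the control, 12 of the 28 members stood higher than in untreated cells and 3 lower (17.3% and 28.4% of all genes did). CDKN1A was among the higher, at 1.46 for the control over untreated cells (adjusted p = 7.24e-13). The stress gene SESN2 rose only from 89.7 to 107 TPM over the control (0.25 ± 0.06), while the control stood 2.13 above the untreated mean of 19.7 TPM.

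Every one of 67 genes of G2/M and mitosis fell (29.2% of all genes did), with a median of -1.27. A fall of at least 2-fold was met by 51 of them, beside 3.18% of all genes. AURKA, the kinase that matures spindle poles, read 18.3, 19.4 and 17.2 TPM in the ARID2 knockdown and 103, 98.4 and 101 TPM in the control (-2.4 ± 0.07, adjusted p = 1.41e-16). MAD2L1, of the spindle checkpoint, read 14.1, 14 and 15 TPM against 75.2, 76.1 and 76.5 TPM (-2.33 ± 0.06, adjusted p = 3.66e-17). CCNB1, the mitotic cyclin, read 58.4, 59 and 66.5 TPM against 224, 219.6 and 229 TPM (-1.86 ± 0.06, adjusted p = 1.18e-15). The groups were far apart for all 3. HMMR, a spindle protein (-2.3), SGO2, which guards centromere cohesion (-1.95), and CENPA, the centromeric histone (-1.89), fell by similar amounts. DEPDC1, a mitotic gene outside the list and among the 15 largest falls, went from 53.7 to 10.4 TPM (-2.26). The control knockdown lay close to untreated cells for this list, with 8 genes higher, 20 lower and a median of -0.08. Of all genes, 17.3% were higher and 28.4% lower in the control than in untreated cells. In bulk RNA, fewer cells in a phase and less RNA per cell cannot be told apart. A CCAAT box was in 50 of the 70 promoters found for 57 of these genes (71.4%).

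S-phase genes fell less. Of 65 tested, 54 fell, 2 rose (29.2% and 33.1% of all genes) and 9 missed the threshold, the median being -0.52. Falls of at least 2-fold numbered 9 (3.18% of all genes). CDC6, which loads the replicative helicase, went from 100.3 to 41.4 TPM (-1.26 ± 0.06). Falls of GINS3 (-1.21), ORC6 (-1.15) and RFC3 (-1.13) were of like size. The 2 rises were PCNA, the sliding clamp, from 590.3 to 728 TPM (0.30) and LIG1, the replicative ligase (0.15). MCM5 (-0.04), named after its value was seen, did not pass.

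**Figure D3:**
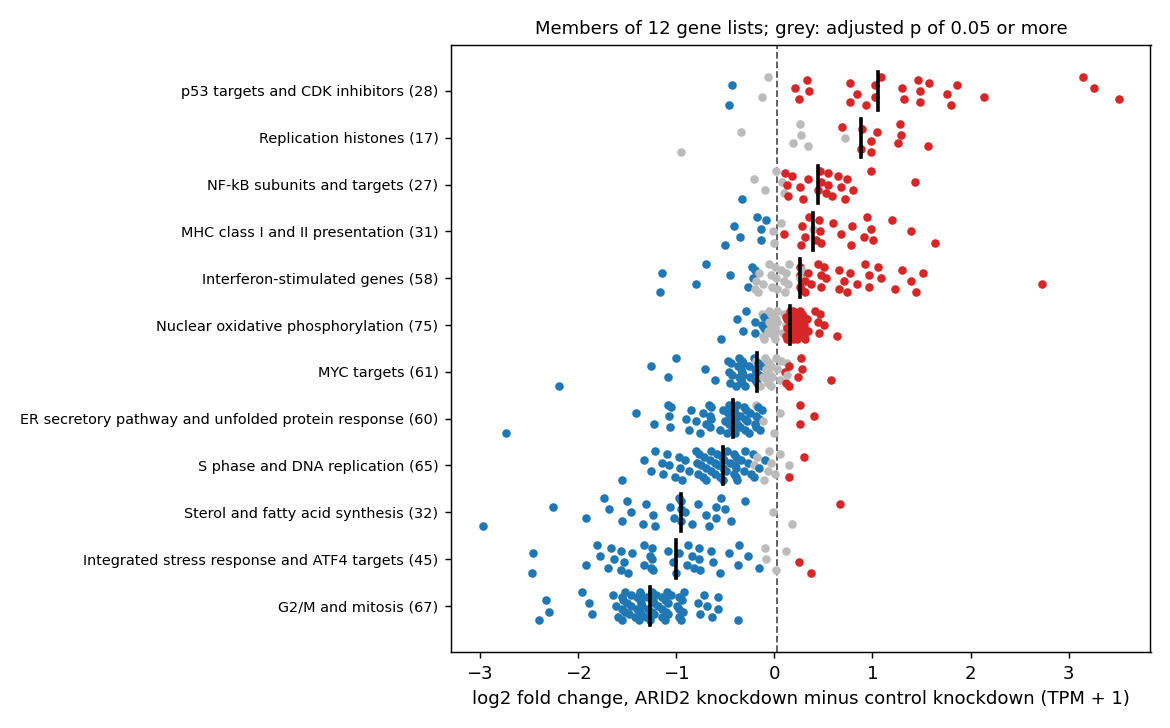
Log2 fold change of each tested member of 12 gene lists, ARID2 knockdown minus control knockdown, on log2(TPM + 1). Red points rose, blue points fell and grey points did not pass; black bars are list medians and the dashed line is the median of all genes tested. Medians run from 1.06 for p53 targets to -1.27 for G2/M genes.

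Genes of sterol and fatty acid synthesis fell almost throughout. Of 32 tested, 29 fell, 1 rose (29.2% and 33.1% of all genes) and 2 missed the threshold, the median being -0.95. Falls of at least 2-fold numbered 14 (3.18% of all genes). These genes are known targets of the SREBP factors, which INSIG1 holds in the endoplasmic reticulum when sterols are plentiful. INSIG1 read 119.8, 117 and 133 TPM in the ARID2 knockdown and 605, 586 and 573 TPM in the control (-2.25 ± 0.04, adjusted p = 4.02e-19). SREBF1, which encodes SREBP1, read 42.4, 42.8 and 45.9 TPM against 140.1, 142 and 144 TPM (-1.68 ± 0.06, adjusted p = 7.09e-15). No library overlapped for either gene. MSMO1 (-1.73) and FDFT1 (-1.55), both of the sterol branch, fell too. PMVK, a mevalonate pathway kinase, was the rise, from 313 to 499 TPM (0.67). SC5D (-0.01) and ELOVL6 (0.18) did not pass. A CCAAT box was in 24 of the 34 promoters found for 25 of these genes (70.6%). TCACNCCAC was in 1 of the 34 (2.94%, beside 1.12% for genes tested). The ARID2-knockdown libraries lay 0.79 to 0.87 below untreated cells by list median, and the control 0.17 to 0.20 above them.

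The integrated stress response list also fell from control to ARID2 knockdown, but from a control that stood above untreated cells. ATF4 is the factor that drives amino acid synthesis and import when translation initiation is restrained. Of 45 members, 39 fell, 2 rose (29.2% and 33.1% of all genes) and 4 missed the threshold, the median being -1.01. Falls of at least 2-fold numbered 23 (3.18% of all genes). Against untreated cells, 42 of the 45 were higher in the control and 1 lower, with a median of 0.86 (17.3% and 28.4% of all genes were higher and lower), while the ARID2 knockdown had 18 higher and 18 lower with a median of -0.04 (32% and 36% of all genes). ATF4 itself read 382, 394 and 384 TPM in the ARID2 knockdown, 933, 983 and 1009 TPM in the control and 457, 470.3 and 468 TPM in untreated cells. The control was the group that stood apart (-1.33 ± 0.03 for the ARID2 knockdown against it, adjusted p = 6.12e-17). PSPH, the last enzyme of serine synthesis, showed the same order, at 15.3, 17.3 and 17.8 TPM, 89.5, 103 and 101 TPM and 20.9, 23.1 and 20.8 TPM (-2.47 ± 0.07, adjusted p = 5.46e-16). PSAT1 and PHGDH, the other serine enzymes, fell (-1.81 and -1.69) to means of 102 and 16.9 TPM beside 89.3 and 19.6 TPM untreated. ALDH1L2, of mitochondrial folate metabolism, fell (-2.46) to 10.4 TPM, beside 10.1 TPM untreated. SLC7A5, the leucine importer, behaved otherwise, with an ARID2-knockdown mean of 62.8 TPM below both the control (217 TPM) and untreated cells (126 TPM). CBS, of cysteine synthesis, had means of 1.36 TPM untreated, 16.2 TPM in the control and 3.48 TPM in the ARID2 knockdown. The rises were SESN2 and PPP1R15A (0.37), the phosphatase subunit that restores initiation, and the members that did not pass were ATF3, DDIT4, VARS and ATF5. Any difference in hairpin or time between the control and the ARID2 knockdown cannot be told apart from the loss of ARID2 here.

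**Figure D4:**
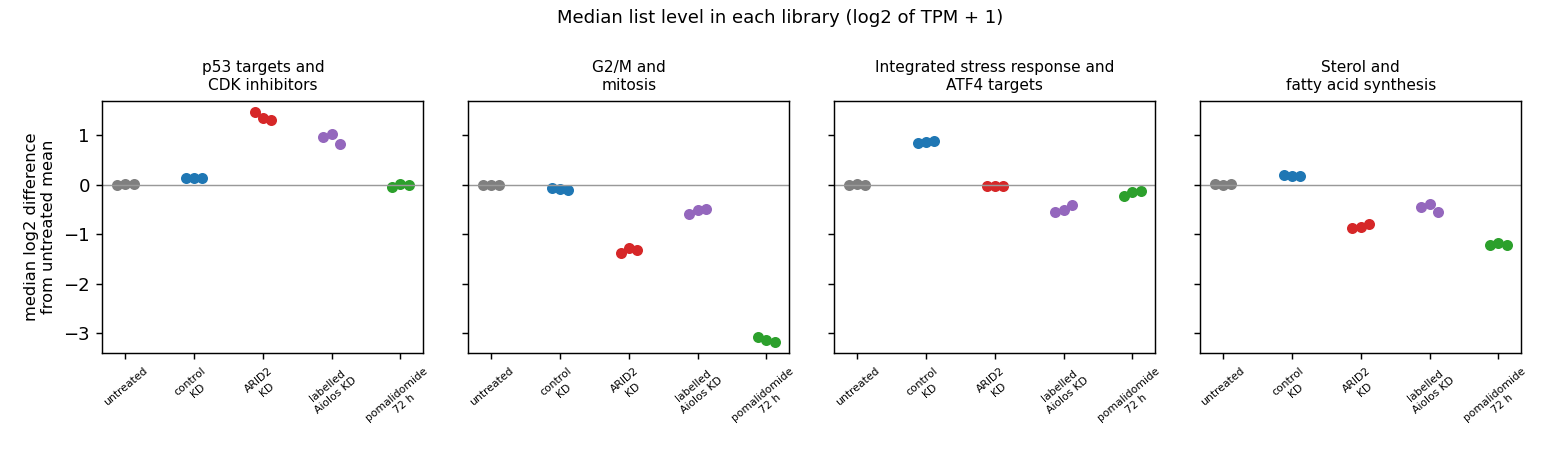
Median over list members of log2(TPM + 1) minus the untreated mean, by library, for 4 lists in 5 groups (points, n = 3 libraries a group; the line at 0 is the untreated mean). The p53 list is highest in the ARID2 knockdown, the G2/M list is lowest under the drug, and the ATF4 list stands highest in the control knockdown.

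Secretory pathway genes fell with smaller changes. Of 60 genes of the endoplasmic reticulum and unfolded protein response, 53 fell, 3 rose and 4 missed the threshold. The median was -0.42, and 29.2% of all genes fell and 33.1% rose. The control stood 0.27 above untreated cells by the median, and the ARID2 knockdown 0.20 below them. After SSR1, the largest falls were in PDIA4, a disulfide isomerase, from 677 to 289.7 TPM (-1.22 ± 0.03), FKBP11, a prolyl isomerase of secretory cells (-1.09), SSR3 (-1.08), the growth factor MANF (-1.06) and the translocon subunit SEC61B (-1.05). XBP1, the plasma cell factor of this response, went the other way, at 1655, 1683 and 1748 TPM against 1292, 1292 and 1256 TPM (0.40 ± 0.02, adjusted p = 8.9e-12). MCFD2, of cargo export (0.26), and the stress kinase gene EIF2AK3 (0.26) were the other rises. Of 9 immunoglobulin-related genes, CD79B (-0.90), the chaperone MZB1 (-0.65), PIM2 (-0.41) and JCHAIN (-0.17) fell. IGLL5, which shares sequence with a lambda constant gene, rose by 0.18, and its change was 0 under quantile normalization. That setting gives each rank the same value in every library. A gene that keeps its rank therefore shows no change there, and the setting cannot test its rise.

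Among 21 plasma cell and B cell transcription factors, 13 rose, 6 fell and 2 missed the threshold, the median being 0.23. IRF4 read 452, 446 and 461 TPM in the ARID2 knockdown and 619, 636 and 639 TPM in the control (-0.48 ± 0.04, adjusted p = 4.41e-10). Untreated cells held 471, 459 and 476 TPM, so the ARID2-knockdown mean differed from untreated by -0.05 ± 0.04 (adjusted p = 0.224) and the control was above both. IKZF3 rose, at 118, 119 and 122 TPM against 83.5, 79.2 and 81.4 TPM (0.55 ± 0.05, adjusted p = 5.09e-09). IKZF1 moved by 0.14 ± 0.04 (adjusted p = 0.011), a call lost without control replicate 3 (adjusted p = 0.0735). ID2, an inhibitor of E proteins, fell from 25.3 to 10.3 TPM (-1.21 ± 0.08), below the untreated mean of 39.3 TPM. ETS1 rose from 40.03 to 73.8 TPM (0.87), and MAF, which a chromosome translocation in this line is known to drive, rose from 508 to 746 TPM (0.55). POU2F2 (0.69) and SPI1 (0.54) rose, and PRDM1, named after its value was seen, rose by 0.46. CRBN, the receptor through which pomalidomide acts, did not pass (-0.06 ± 0.07, adjusted p = 0.5). Of the 17 genes of its ligase and its drug-recruited substrates, 5 rose and 4 fell (29.4% and 23.5%). These shares were near or below the 33.1% and 29.2% of all genes. PATZ1 (0.74), WIZ (0.50) and ZNF692 (0.42) led the rises and GSPT1 (-0.38) the falls. ZNF653 (0.35) and ZNF276 (0.30) were the other rises.

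MYC fell, and the network around it mostly fell with it. MYC read 205, 199 and 200.3 TPM in the ARID2 knockdown, 368, 367 and 377 TPM in the control and 468, 475 and 495 TPM untreated. The ARID2 knockdown was lowest, without overlap (-0.88 ± 0.03 against the control, adjusted p = 5.38e-15). Of 13 genes of the MYC, MAX and MXD network, 8 fell and 2 rose (29.2% and 33.1% of all genes), with a median of -0.17. The paralog MYCN fell from 8.64 to 3.5 TPM (-1.1). From the MXD family, MYC's antagonists at MAX, MXD3 (-1.08), MXI1 (-0.74) and MXD1 (-0.63) fell. MXD4 rose from 28.2 to 49.2 TPM (0.78), and MAX itself did not pass (0.05). Of 61 MYC targets, 33 fell, 8 rose (29.2% and 33.1% of all genes) and 20 missed the threshold, the median being -0.18. The control already lay below untreated cells for 55 of the 61 and above for 2, with a median of -0.33 (28.4% and 17.3% of all genes). The ARID2 knockdown lay below untreated cells for 54, with a median of -0.51 (36% of all genes). The libraries labelled Aiolos knockdown were below the same control for 54 and above for 1, with a median of -0.41 (30.7% and 37.2% of all genes). The spread was wide: HK2, the hexokinase that traps glucose, fell from 37.8 to 7.5 TPM (-2.19 ± 0.06), SRM, of polyamine synthesis, from 277 to 138 TPM (-0.999), and EIF4EBP1, a translation repressor, from 204 to 95.4 TPM (-1.09). PLK4, the centriole kinase (-1.25), TMEM97 (-0.71) and UNG (-0.60) also fell. AIMP2, a scaffold of tRNA synthetases named after its value was seen, rose by 0.58.

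Energy metabolism moved in parts. In glycolysis 13 of 23 genes fell and 5 rose (29.2% and 33.1% of all genes), with a median of -0.18. Besides HK2, PGAM1 fell from 655 to 249.7 TPM (-1.39 ± 0.03), LDHB from 1153 to 616 TPM (-0.90), and LDHA (-0.45) and PFKFB3 (-0.50) fell too. The glucose transporter SLC2A3 rose from 10.3 to 20.4 TPM (0.93). Nuclear genes of oxidative phosphorylation mostly rose by small amounts, with a median of 0.16. Here 45 of 75 rose, 10 fell (33.1% and 29.2% of all genes) and 20 missed the threshold. NDUFC1 (0.64), ATP5G2 (0.51), NDUFB10 (0.47), NDUFB5 (0.46) and UQCRC1 (0.44) led the rises, and SDHA fell from 193 to 132 TPM (-0.54). Of 13 mitochondrial mRNAs, 8 rose, led by MT-ND1 (0.33), but 3 rose under quantile normalization, where the median was 0. As for IGLL5, a gene that keeps its rank shows no change in that setting. Cytosolic ribosomal protein genes gave no common direction, with 20 of 79 higher and 27 lower (25.3% and 34.2%, beside 33.1% and 29.2% of all genes). Under quantile normalization 35 were higher and 15 lower. RPL4 (-0.60), RPS21 (-0.56) and RPL11 (-0.46) fell most and RPS19 (0.41) and RPS15 (0.39) rose most, in a family with many near copies.

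Genes of antigen presentation were mostly higher in the ARID2 knockdown than in the control. Of 31 genes of both classes, 20 rose, 7 fell (33.1% and 29.2% of all genes) and 4 missed the threshold, the median being 0.40. Against untreated cells 15 were higher and 5 lower, with a median of 0.11 (32% and 36% of all genes were higher and lower). The control lay below untreated cells for 16 and above for 3, with a median of -0.12 (28.4% and 17.3% of all genes). HLA-DRA, the alpha chain of HLA-DR, read 843, 868 and 815 TPM against 362, 366 and 372 TPM in the control and 460.5, 439 and 443 TPM untreated. It was highest in the ARID2 knockdown without overlap (1.2 ± 0.04, adjusted p = 7.44e-16). HLA-DRB1 (1.39) and HLA-DRB5 (1.64) rose too, though reads of the DRB genes could be divided among near copies. The peptide editors HLA-DMB (1.01) and HLA-DOB (0.99) rose, as did TAP1, the class I peptide transporter, from 71.5 to 138 TPM (0.94). CIITA, the class II activator, fell slightly (-0.18), and among class I genes HLA-B fell (-0.35) and HLA-C did not pass (-0.01). These 3 were named after their values were seen.

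NF-kB genes and chemokines were higher as well. Of 27 NF-kB subunits and targets, 21 rose, 1 fell (TNIP1, -0.33) and 5 missed the threshold. The median was 0.45, and 33.1% of all genes rose and 29.2% fell. TRAF1, a receptor adaptor, rose from 5.51 to 16.7 TPM (1.44 ± 0.09), the inhibitor NFKBIE from 29.9 to 60.2 TPM (0.99) and RELB, a subunit of the alternative pathway, from 55.1 to 96.6 TPM (0.80). NFKBIZ (0.75) and BCL3 (0.65) rose by less. CCL3, a chemokine that recruits monocytes, was among the most abundant transcripts. It read 8226, 8066 and 7561 TPM in the ARID2 knockdown, 4498, 5126 and 5257 TPM in the control and 916, 934 and 880.4 TPM untreated, with reads possibly divided with its near copy CCL3L3. The control already lay well above untreated cells (2.44), and the ARID2 knockdown lay above the control (0.68 ± 0.05, adjusted p = 9.57e-10). Of 48 chemokines, cytokines and receptors, 25 rose and 9 fell (33.1% and 29.2% of all genes), with a median of 0.24. In the libraries labelled Aiolos knockdown the median of this list over the same control was 0.31. TNFSF9, the ligand of a T cell costimulatory receptor, rose from 39.1, 35.9 and 34.9 to 182, 194 and 205 TPM (2.37 ± 0.10, adjusted p = 7.6e-14), and IL2RG, the common cytokine receptor chain, rose from 259 to 537 TPM (1.05). SOCS2, a signalling inhibitor, fell (-1.22), while SOCS1 (0.78) and IL16 (0.73) rose.

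Interferon-stimulated genes moved both ways, more of them upward. Of 58, 30 rose, 9 fell (33.1% and 29.2% of all genes) and 19 missed the threshold, the median being 0.27. The libraries labelled Aiolos knockdown were above the same control for 34 and below for 10, with a median of 0.34 (37.2% and 30.7% of all genes). CXCL10, the interferon-induced chemokine, read 113, 121 and 133 TPM against 20.8, 16.8 and 15.6 TPM in the control and 26, 32.8 and 35.7 TPM untreated (2.73 ± 0.11, adjusted p = 5.57e-14). Its groups did not overlap, and the control lay below untreated cells. ZNFX1 (1.44), PARP12 (1.09), HELZ2 (1.06) and ISG15 (0.97) rose. UBE2L6, the enzyme that conjugates ISG15, fell from 124 to 54.7 TPM (-1.16 ± 0.05), and IFIT1, named after its value was seen, fell from 4.19 to 1.36 TPM. UBD, a ubiquitin-like protein induced by interferon and among the 15 largest rises, went from 3.02 to 17.9 TPM (2.35).

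Surface proteins of myeloma cells also moved both ways, with a median of 0.20. Of 28, 15 were higher and 7 lower (53.6% and 25%, beside 33.1% and 29.2% of all genes). GPRC5D, a target of myeloma antibodies, read 86.4, 78.4 and 76.9 TPM against 177, 198 and 199.9 TPM (-1.24 ± 0.06, adjusted p = 2.45e-13). TNFRSF17, which encodes BCMA, went from 1088 to 751 TPM (-0.53 ± 0.03), and its relative TNFRSF13B from 222 to 114 TPM (-0.95 ± 0.05). For these receptors untreated cells lay between, at 124 TPM for GPRC5D, 955 TPM for TNFRSF17 and 154 TPM for TNFRSF13B. CD80, a costimulatory ligand, was near 0 in the control (0.25, 0.393 and 0.406 TPM) and read 7.96, 7.82 and 7.85 TPM in the ARID2 knockdown (2.72 ± 0.13, adjusted p = 5.34e-13). CD86 (0.75) and IL6ST, a cytokine receptor chain (0.69), rose too, and CD38 did not pass (-0.02).

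Further lists held strong single members. Of 44 actin and adhesion genes, 24 fell and 10 rose (54.5% and 22.7%, beside 29.2% and 33.1% of all genes). LGALS1, a galectin, read 65.5, 62.3 and 64.4 TPM against 362, 356 and 375 TPM (-2.49 ± 0.06, adjusted p = 3.66e-17), and VCL, vinculin, fell to 1.19 from 5.74 TPM (-1.62). S100A6 (-1.37), S100A10 (-1.33), CORO1A (-1.15) and LMNA (-0.77) fell too. In the BCL2 family 8 of 15 rose and 3 fell (53.3% and 20%), with a median of 0.33. The libraries labelled Aiolos knockdown had a median of 0.36 over the same control. Besides BBC3, BAX rose from 95 to 171 TPM (0.84 ± 0.07), BCL2L11 by 0.51, BAD by 0.41 and BAK1 by 0.39, and BIK fell (-0.80). Of 29 DNA methylation and Polycomb genes, 13 rose and 10 fell (44.8% and 34.5%, beside 33.1% and 29.2% of all genes). SUZ12, a core subunit of PRC2, fell from 99.6 to 50.1 TPM (-0.98 ± 0.06), and EZH1, its alternative enzyme, rose from 43.3 to 76.4 TPM (0.80 ± 0.05). DNMT3B (-1.02) and UHRF1 (-0.65), of DNA methylation, fell, and JARID2 (0.69) and TET2 (0.68) rose. Lysosome and autophagy genes were mixed, with 20 of 42 higher and 11 lower (47.6% and 26.2%). Among them were CTSZ (-1.47), ATG5 (-1.27), GABARAPL1 (1.04), CTSK (1.000) and GAA (0.94).

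HMOX1, the haem-degrading enzyme, rose from 19.6 to 89.2 TPM (2.13 ± 0.12) and the cystine importer SLC7A11 fell from 30.7 to 9.2 TPM (-1.63 ± 0.09). Their antioxidant list had 8 of 24 higher and 9 lower (33.3% and 37.5%, beside 33.1% and 29.2% of all genes). GCLC, of glutathione synthesis, rose (0.82). Heat shock genes fell in 12 of 24 cases and rose in 5, all by under 0.6. Of 25 immediate early genes, 10 rose and 3 fell, led by IER5 (1.31) upward and KLF2 (-0.98) downward. Replication histones rose in 10 of 17 cases, fell in 0, with a median of 0.88, led by HIST1H2BD (1.57), HIST1H2BK (1.29) and HIST1H4H (1.26), in a family of near copies. HIST2H2AA4 was among the 15 largest rises but its libraries scattered (40.4, 18.1 and 26.1 against 9.22, 0 and 10.5 TPM), and its call was lost in 5 of the settings tried. MAF targets gave 6 rises and 2 falls of 15, with CCND2 at 0.68, RND3 at 1.02 and PTP4A3 at -1.17. Hypoxia genes gave 4 rises and 3 falls of 18, with EGLN1 at 0.59 and INSIG2 at -0.57. Their shares, 22.2% and 16.7%, were below the 33.1% and 29.2% of all genes. Of 16 genes of a small RNA and hairpin list, 7 rose and 4 fell, with AGO4 at 1.09 and DICER1 at 0.47. TLR7, an RNA sensor on this list and no processing step, was at -0.75.

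Some markers of other cell types moved as single genes, and their part in the results was not tested. The summed level of the myeloid list was 15.4 to 16.8 TPM in the ARID2 knockdown and 6.82 to 10.1 TPM in the control, and of the erythroid list 27.6 to 30.2 against 13.8 to 20.6 TPM. The epithelial and stromal list summed to 4.87 to 5.87 against 18.2 to 22.7 TPM, the B cell list to 85.4 to 91.4 against 119.9 to 120.8 TPM and the T and NK cell list to 1.74 to 1.997 against 2.17 to 3.57 TPM. The endothelial marker PECAM1 fell from 17.9 to 3.67 TPM (-2.02), with 4.88 TPM untreated. The macrophage marker CD68 rose from 6.57 to 13.3 TPM (0.92), the B cell marker CD79B fell, and HBB, a globin, rose from 15.2 to 27.8 TPM (0.85). CD68, PECAM1 and HBB held most of the summed level of their lists. Of 3 epithelial and stromal markers tested, 2 fell, 0 rose and 1 did not pass, and only 1 erythroid marker, HBB, was tested. Of 6 myeloid markers tested, 2 rose, 1 fell and 3 did not pass. Besides CD68, ITGAM rose, from a mean of 0.0454 to 2.17 TPM (1.59). Mean S100A9 was 0.133 against 1.43 TPM in the control, and mean CD14 0.183 against 0.667 TPM. Of 4 B cell markers tested, 1 fell and 3 did not pass, with CR2 at 50.9 against 52.9 TPM.

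The remaining genes of the 15 largest rises and falls belong to no single list. Upward, LCE1E read 53.9, 48.2 and 42.9 TPM against 2.62, 1.78 and 1 TPM (4.18 ± 0.26, adjusted p = 2.56e-11), and LCE1B (3.01) and LCE1D (2.74) lie in the same cluster of cornified envelope genes, whose near copies could share reads. CLDN14, a tight junction claudin, rose from 0.903 to 15.1 TPM (3.08). KLRC1, an NK cell receptor with near copies, rose from 1.94 to 22 TPM (2.99). DRAM1, a lysosomal autophagy protein that p53 induces, rose from 4.52 to 33.4 TPM (2.64 ± 0.10), and the quiescence kinase DYRK1B from 2.07 to 16.6 TPM (2.52). Downward, HID1, of dense-core vesicle sorting, went from 5.05 to 0.277 TPM (-2.24), EMP2, a tetraspan membrane protein, from 18.7 to 3.28 TPM (-2.21), and SULT1A4, which has a near-identical copy, from 17.8 to 2.15 TPM (-2.64).

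The ARID2 knockdown was also set against the libraries labelled Aiolos knockdown, the other lentiviral hairpin. In those libraries the IKZF3 transcript was higher than in the control (127, 121 and 141 TPM), which goes against their label, so they are called by it. Directly compared, 8282 genes differed between the hairpins (65.9%, 30.2% higher and 35.7% lower in the ARID2 knockdown), and by 2-fold or more 334 were higher (2.66%) and 500 lower (3.98%). Of the 67 G2/M genes, 64 were lower in the ARID2 knockdown and 1 higher, with a median of -0.79. Of the 65 S-phase genes, 47 were higher and 7 lower, with a median of 0.46, so this list was lower in the labelled libraries. The p53 list was higher in the ARID2 knockdown for 20 of 28 genes and lower for 8, with a median of 0.74. For the ATF4 list it was 36 of 45 higher and 3 lower, with a median of 0.55. Set against the same control libraries, which the comparisons share, the labelled libraries had these lists on the same side of the control as the ARID2 knockdown. Their p53 list was higher for 21 of 28 genes and lower for 3, with a median of 0.53 beside 1.06 in the ARID2 knockdown. Of all genes, 37.2% were higher and 30.7% lower in the labelled libraries than in the control. Their G2/M list was lower for 61 of 67 and higher for 2 (-0.47 beside -1.27), and their sterol list lower for 28 of 32 and higher for 2 (-0.59 beside -0.95). Their S-phase list was lower for 63 of 65 (-0.91 beside -0.52), their ATF4 list for 43 of 45 (-1.42 beside -1.01) and their secretory list for 57 of 60 (-0.64 beside -0.42), so the fall of these 3 lists from the control was larger by the median in the labelled libraries. CDKN1A read 91.3, 96.9 and 86 TPM in the labelled libraries, far below the ARID2 knockdown (2.67 ± 0.06, adjusted p = 7.33e-18). IRF4 read 135, 129 and 146 TPM there, well below the ARID2 knockdown (1.72 ± 0.04, adjusted p = 1.01e-18).

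Single genes separated the hairpins by more. CCL3 was at 579.98 TPM in the labelled libraries beside 7951 TPM in the ARID2 knockdown (3.78), CCL3L3 at 605 beside 8768 TPM (3.86), DKK1, a Wnt inhibitor known for its part in myeloma bone disease, at 4.15 beside 56.9 TPM (3.49) and HRASLS2 at 0.697 beside 24.4 TPM (3.91). Lower in the ARID2 knockdown were MME, the surface peptidase CD10 (165 beside 3.89 TPM, -5.09), FRMD3 (-3.69), CREG1 (-3.39) and LGI2 (-3.17). DKK1 also stood above the control knockdown, at 56.2, 54.4 and 59.9 against 18.5, 21 and 19.5 TPM (1.49 ± 0.12, adjusted p = 1.1e-09).

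By 2-fold or more, 60 genes (0.478%) were higher and 100 (0.796%) lower in the ARID2 knockdown than in each of the control, untreated and labelled Aiolos knockdown groups. The higher set held LCE1E, PHLDA3, FDXR, CDKN1A, CLDN14, CXCL10, CD80, DRAM1 and TNFSF9. The lower set held SCD, CREG1, EMP2, 16 G2/M genes of the list, among them AURKA, MAD2L1 and CCNB1, and sterol genes such as MSMO1 and LSS. From the ATF4 list, 0 genes were in either set. SMARCD1, MYC and ARID2 itself missed the 2-fold limit in at least 1 of the 3 comparisons.

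Pomalidomide for 72 h, set against untreated cells and so sharing no library with the knockdowns, moved some of the same genes. Of the 400 genes at least 2-fold lower in the ARID2 knockdown, 188 were at least 2-fold lower under the drug, which is 47% of the knockdown's list and 19.2% of the drug's 980 (7.8% of all genes). Upward it was 79 genes, 33.6% of 235 and 5.8% of 1363 (10.9% of all genes). Opposite changes of at least 2-fold were met by 8 of the 235 and 25 of the 400. Across the 12559 genes, which are not independent replicates, the 2 effects correlated at r = 0.351 (rho = 0.326). SCD fell by nearly the same amount in both, -2.97 and -3.13, with a difference of 0.16 ± 0.06 (adjusted p = 0.0207). MYC also fell in both, -0.88 and -0.65. G2/M genes fell further under the drug, by a median of -3.14 against -1.27, and 65 of 67 had a higher value in the knockdown effect, beside 29.1% of all genes (40.4% had a lower one).

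The knockdown and drug effects differed for most of the p53 list. Its median was 1.06 in the knockdown and -0.04 under the drug. In the knockdown effect 21 of 28 members were higher and 5 lower (29.1% and 40.4% of all genes), with a median difference of 0.94. PHLDA3 did not pass under the drug (-0.06 ± 0.09, adjusted p = 0.548), and its difference was 3.57 ± 0.13. CDKN1A rose under the drug by 1.23 ± 0.06, less than in the knockdown (difference 1.92 ± 0.09, adjusted p = 1.34e-13). Among genes that passed in the knockdown, LCE1E had the largest difference upward (4.61 ± 0.36, adjusted p = 6.93e-10). Interferon-stimulated genes leaned the other way, with 33 of 58 lower in the knockdown effect and 12 higher (40.4% and 29.1% of all genes). Their median difference was -0.44, beside -0.11 for all genes, which leaned the same way. IRF4 fell under the drug (-1.03), further than in the knockdown (difference 0.55 ± 0.05), and ARID2 did not pass under the drug (-0.01 ± 0.07, adjusted p = 0.888).

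**Figure D5:**
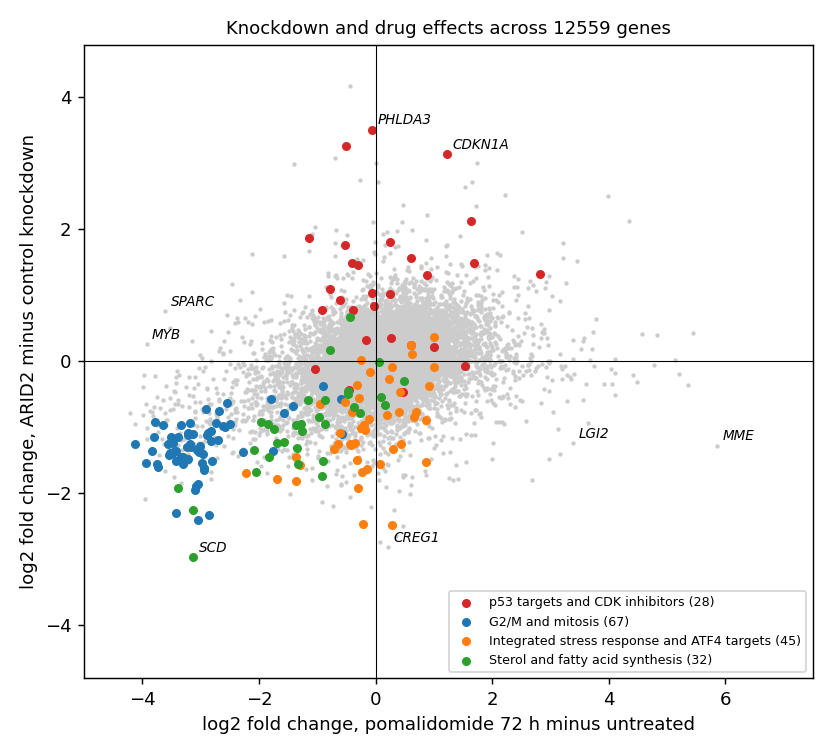
Log2 fold change of each gene in the ARID2 knockdown against the control knockdown (vertical) and under 72 h of pomalidomide against untreated cells (horizontal), both on log2(TPM + 1). Grey points are all 12559 genes and coloured points 4 lists. G2/M genes are negative on both axes and sterol genes mostly so, while p53 targets are mostly positive on the vertical axis and spread about 0 on the horizontal axis.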

How the data were processed

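RNA of 21 MM.1S libraries, 7 groups of 3, was measured by RNA-seq, and the values were deposited by the authors as 1 table of TPM per gene symbol. Reads were placed on hg38 per the submitters' processing notes. The sources used here name no aligner, counting tool or strand setting. TPM keeps no depth, so no counting interval could be given. Columns were assigned to libraries by their names, and 0 columns belonged to no listed library.

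A gene was kept where 3 or more libraries reached 1 TPM, which left 12559 of 17691. A linear model of log2(TPM + 1) with 7 group means was fitted in limma 3.58.1 (R 4.3.3) with a trend in the prior variance, 14 residual degrees of freedom and two-sided tests. P-values were adjusted by Benjamini-Hochberg over all genes kept within each comparison, at 0.05. A fold change on this scale understates the change of genes of low TPM. On simulated data with 100 genes changed by 1 on the log2 scale and 100 by 0.5, this comparison recovered 98% and 74%, with 6 false calls. The simulation changed only 200 genes and drew independent noise for each gene and library. In the data 62.2% of genes passed, so these rates need not carry over.

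The members, gene lists and comparisons were chosen with earlier results of these data known. Named genes were the PBAF subunits, IKZF1, IKZF3, IRF4, MYC and CRBN, then the 15 largest rises and 15 largest falls among genes that passed, did not overlap and reached a mean of 5 TPM in the higher group. Up to 6 passing members of each list with the largest change and a mean of 5 TPM followed, and the 4 genes in each direction that differed most from the libraries labelled Aiolos knockdown and from the drug effect. Exceptions are stated as chosen after their values were seen, and some genes that the rule names are not reported here. Gene positions come from GENCODE 29 on GRCh38, where 17464 of 17691 symbols matched 1 gene. Promoters of 300 bases come from RefSeq on GRCh38.p14, for up to 3 risen and 3 fallen genes of the rankings, searched for 7 motifs on both strands, of which the p53 half-site and TCACNCCAC were added after the values were seen. Figures were drawn with matplotlib 3.10.9 in Python 3.11.15. Alternatives were pseudocounts of 0.5 and 0.1 TPM, no filter, a filter of 5 TPM, median-of-ratios scaling, quantile normalization, no prior trend, only the groups compared, a replicate block and leaving out each library.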

Additional observations from a re-analysis of the deposited data

Results flagged for a closer look

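KLRC1, SPARC, MYB, MME, LGI2, CDK18 and CORO1B passed with opposite signs under the ARID2 knockdown and under 72 h of pomalidomide. For each, limma's test of the difference between the effects also passed. The natural killer receptor gene KLRC1 rose in the knockdown (2.99) and fell under the drug (-1.4), a difference of 4.38 ± 0.19 (adjusted p = 6.77e-14). SPARC, a matrix protein, rose (0.76) and fell under the drug (-3.61), a difference of 4.37 ± 0.09. MYB, a blood progenitor transcription factor, rose by 0.26 and fell under the drug (-3.93), a difference of 4.19 ± 0.12, though its rise in the knockdown was lost without control replicate 3 (adjusted p = 0.0533). Its ARID2-knockdown libraries (15.2, 15.1 and 15.4 TPM) and control libraries (13, 12.7 and 12.2 TPM) were both below untreated cells (27.1, 27.5 and 26.2 TPM).

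The other 4 fell in the knockdown and rose under the drug. MME, the surface peptidase, read 3.65, 3.36 and 4.65 TPM in the ARID2 knockdown, 11.3, 10.04 and 10.9 TPM in the control, 5.68, 5.59 and 4.76 TPM untreated and 378, 359 and 369.6 TPM under the drug, a difference of -7.14 ± 0.11 (adjusted p = 1.94e-20). LGI2, a secreted protein, differed by -4.62 ± 0.07, with 317, 299.7 and 290.4 TPM under the drug. CDK18, a kinase, differed by -4.56 ± 0.14 (-1.4 in the knockdown, 3.16 under the drug) and CORO1B, an actin regulator, by -4.27 ± 0.11 (-0.35 and 3.92). The knockdown and the drug had different reference groups.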

How the results depend on the processing

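The number of genes that passed stayed within 1.5 times of its reported value, for all 4 comparisons, in every alternative run, and the ARID2 fall kept its direction and its call. Leaving out each library in turn gave 7237 to 7352 genes for the ARID2 knockdown against the control, 7763 to 7963 against the libraries labelled Aiolos knockdown, 5059 to 5229 for the control against untreated cells and 8429 to 8565 for the difference from the drug effect, and an ARID2 change of -1.02 to -0.998. Genes at least 2-fold higher and lower numbered 431 and 590 with a pseudocount of 0.1 TPM, beside 235 and 400. Median-of-ratios scaling moved the median of all genes by -0.03, and 48.8% of calls were then higher in place of 53.1%. MT-CYB changed sign under quantile normalization (-0.0644, adjusted p = 0.215), where the call of MT-ND6 was also lost. The cause was not tested. MT-ND4 and IGLL5 also lost their calls there, with a change of 0, the value that setting gives a gene that keeps its rank. No sign that the replicate numbers pair the libraries was seen (r = -0.0353, -0.0572 and -0.119 between same-numbered deviations), and a fit with the replicate block called 7755 genes in place of 7816. No library of the ARID2 knockdown correlated best with the control of its own number. With only the 2 groups fitted, 8260 genes passed, and the standard error of the ARID2 change was 0.0397 in place of 0.0668. Unknown depth, 3 libraries a group and a control of unstated hairpin and time limit these results.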

Other observations

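Some genes outside the lists, named after their values were seen, stood apart in the ARID2 knockdown. GLS2, a glutaminase that p53 is known to induce, read 20.9, 20.1 and 20.5 TPM against 4.73, 4.3 and 3.76 TPM in the control and 5.45, 4.78 and 4.99 TPM untreated (2.03 ± 0.11, limma adjusted p = 3.05e-12), and fell under pomalidomide (-1.03). CD70, the ligand of the costimulatory receptor CD27, rose from 133 to 405 TPM (1.6 ± 0.06) and fell under the drug (-1.58). RGS1, a brake on chemokine receptor signalling, read 282, 294 and 269 TPM against 78.1, 76.1 and 68.9 TPM (1.91 ± 0.08). The cytidine deaminases moved apart: APOBEC3H rose from 19.6 to 81 TPM (1.99 ± 0.13), and APOBEC3B fell from 265 to 81.7 TPM (-1.69 ± 0.05), in a family whose close copies could share reads.

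Among the falls, BHLHA15, which encodes the secretory cell factor MIST1, read 21.5, 19.1 and 28.6 TPM against 78, 90.6 and 90.2 TPM and 62, 70.5 and 60.2 TPM untreated (-1.87 ± 0.16, adjusted p = 3.83e-09), and rose under the drug (0.60). PTMA, an abundant nuclear protein tied to proliferation, went from 1739 TPM untreated and 1153 TPM in the control to 309.9 TPM (-1.89 ± 0.03), in a family with many processed copies. EPB41, a membrane skeleton protein, fell from 68.6 to 15.8 TPM (-2.05 ± 0.04), with 79 TPM in the libraries labelled Aiolos knockdown.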
